A study of Mus musculus with 4 samples.

Results

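Col28a1 encodes the single known chain of collagen XXVIII, and its transcript was followed here across the layers of embryonic mouse epidermis that lacked H3K9me3 methyltransferases. The gene was found by its symbol in the gene lists of the libraries, where it is 1 of 56980 genes. It was chosen on its measured values: it was close to undetected in control (Ctrl) keratinocytes, high in triple knockout (TKO) keratinocytes, and higher above the basal layer than in it. These 3 features are therefore described below without a test.

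Collagen XXVIII is a short-chain collagen whose triple helix is flanked by von Willebrand factor A domains, the protein-binding modules that also occur in collagen VI and the matrilins. It is best known from the basement membrane around Schwann cells of peripheral nerve. H3K9me3 is a histone mark of silenced chromatin, and basal keratinocytes, marked by Krt5 and Krt14, switch to Krt1 and Krt10 as they leave the basement membrane and become spinous cells.

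The 4 single-cell libraries came from dorsal skin sorted for Epcam and α6 integrin, labelled E16.5 (a litter list of the study gives a different embryonic day for the single-cell litters), with 1 embryo per library, 2 embryos per genotype and tamoxifen given to all. Every embryo was Suv39h1 f/f, Suv39h2-/-, Setdb1 f/f, so the Ctrl animals also lacked Suv39h2. The TKO embryos carried K14CreERT2, a tamoxifen-dependent Cre driven by the Krt14 promoter of basal keratinocytes, and the Ctrl embryos did not. The study describes the TKO skin as mosaic, so a TKO library can hold cells that never recombined.

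The libraries held 3804 to 5785 barcodes and 70749496 to 89655247 UMIs, that is, molecules counted once each, and pairs of libraries shared 2 to 12 barcodes. After filtering, 1562 to 2989 keratinocytes remained per library. The label calls the cells basal, yet cells of early suprabasal-like and spinous-like clusters, which express Krt1 and Krt10, numbered 669 and 411 in Ctrl and 193 and 357 in TKO. Setdb1 was lower in both TKO libraries (39.5 and 42.5 CPM, that is, UMIs of a gene per 1000000 UMIs of the summed cells) than in both Ctrl libraries (67.9 and 58.2 CPM), with a log2 change of -0.64 (SE 0.127, adjusted p 0.0472 in edgeR). This call was lost when Ctrl replicate 1, Ctrl replicate 2 or TKO replicate 1 was left out, with adjusted p in edgeR from 0.0344 to 0.244 over the 4 settings that leave out a library and a log2 change from -0.76 to -0.50. Suv39h1 did not pass this test (log2 change -0.17, adjusted p 0.489 in edgeR). Suv39h2 did not pass it either (0.29, adjusted p 0.404 in edgeR). Reads near the 3′ end of these genes may lie outside the deleted exons, so neither value checks a deletion.

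On the GRCm39 build, Col28a1 lies on the minus strand of chromosome 6, from 7997102 to 8192617. Its main transcript, Col28a1-201, joins 35 exons over 195516 bases into 4936 bases of RNA. The annotation lists 3 shorter transcripts, and the 3′ tags do not tell them apart. Because the gene was silent in one genotype and active in the other, the 250 bases before its first exon are shown, at chr6:8192618-8192867 (minus strand, GRCm39); they are identical to the RefSeq promoter entry, which is given on GRCm38.p6. The capitals mark the one CACCC, the short motif that Klf factors can bind:
Col28a1 promoter: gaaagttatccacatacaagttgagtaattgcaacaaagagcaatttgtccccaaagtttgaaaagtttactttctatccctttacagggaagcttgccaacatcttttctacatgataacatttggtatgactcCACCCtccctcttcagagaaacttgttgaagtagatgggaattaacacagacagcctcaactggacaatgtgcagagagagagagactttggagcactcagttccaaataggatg
With the next 50 bases included, this window held no CpG, which was true of 5.43% of 32851 promoters in the RefSeq table, where the median was 7. Its GC content was 41.7%, against a median of 52.7%. CACCC, searched on both strands, was present in 57.5% of all promoters. The CCAAT box, the TATA box (as TATAAA), the AP-1 motif TGACTCA, the octamer ATGCAAAT and the Grhl motif AACCGGTT were not in the window on either strand, and they were in 37.4%, 13.6%, 5.2%, 1.74% and 0.146% of promoters. A match or its absence describes these letters only.

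Over all keratinocytes, 9 and 4 Col28a1 UMIs were counted in Ctrl replicates 1 and 2, beside 2057 and 6327 in TKO replicates 1 and 2. Its level was 0.132 and 0.0698 CPM in Ctrl, and 39.4 and 117 CPM in TKO (78.1 ± 54.8 CPM, SD, n = 2). Both TKO libraries stood above both Ctrl libraries, and TKO replicate 2 was 2.97 times as high as TKO replicate 1. With the libraries of a genotype pooled, TKO was 761 times as high as Ctrl, with a counting interval of 445 to 1429. Counting intervals here are exact 95% intervals and cover counting error only, not the spread between embryos.

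Keratinocytes were sorted into classes by clusters and their markers: basal-like, early suprabasal-like, spinous-like and hair follicle-like. In basal-like cells, Col28a1 UMIs numbered 2 and 1 in Ctrl (0.0618 and 0.0317 CPM), beside 597 and 1431 in TKO (18.1 and 51.0 CPM). In early suprabasal-like cells, which had started to express Krt1 and Krt10, the count was 5 and 1 in Ctrl (0.664 and 0.236 CPM), rising to 666 and 1938 in TKO (165 and 324.5 CPM). In spinous-like cells, Ctrl held 0 and 1 UMIs, and TKO 619 and 2652 (195 and 425 CPM). The TKO level rose from the basal-like class to both suprabasal classes in each embryo. A count of 0 in the first Ctrl library allows up to 0.266 CPM. In hair follicle-like cells, Ctrl held 2 and 1 UMIs (0.121 and 0.0634 CPM) and TKO 150 and 306 (13.1 and 22.5 CPM). The pooled ratio of TKO to Ctrl was 707 in basal-like cells (interval 242 to 3433), 510 in early suprabasal-like cells (234 to 1391), 5778 in spinous-like cells (1036 to 228300) and 196 in hair follicle-like cells (66.7 to 955). These intervals are wide because each rests on 1 to 6 Ctrl UMIs, and those of the first 3 classes overlap.

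Among the TKO classes the order by mean level was spinous-like (309.9 ± 162 CPM), early suprabasal-like (245 ± 113), basal-like (34.5 ± 23.3) and hair follicle-like (17.8 ± 6.61; SD, n = 2 each). The values of spinous-like and early suprabasal-like cells overlapped between embryos, and so did those of basal-like and hair follicle-like cells. Those of basal-like and early suprabasal-like cells did not. Within TKO replicate 1, the spinous-like level was 10.8 times the basal-like level, and within TKO replicate 2 it was 8.33 times. Without alignment of the libraries before clustering, when 40 and 17 TKO cells were spinous-like, the ratio averaged over both embryos on the log2 scale was 2.49 times, against 9.48 with alignment. The unaligned clustering put 162 and 364 TKO cells in the early suprabasal-like class. Their Col28a1 level was 213 and 375 CPM, against 18.5 and 48.0 CPM in basal-like cells. With alignment, the early suprabasal-like level was 9.14 and 6.36 times the basal-like level. The step from early suprabasal-like to spinous-like cells was smaller, 1.18 and 1.31 times, and its sign turned when the CPM of single cells was averaged (log2 ratio -0.32) and without alignment (-1.93). Hair follicle-like cells had 0.727 and 0.441 of the basal-like level, an order that turned when genes changed by genotype were kept in the clustering. Cells of the Merkel-like cluster, named for the touch-receptor cells of the epidermis, were too few to place. In it, 25 UMIs were found in 17 cells of TKO replicate 1 and 0 in 8 cells of TKO replicate 2. The study reports no Merkel cluster in TKO. Merkel markers summed to 6.62 and 4.8 CPM over TKO keratinocytes, against 172 and 154 CPM in Ctrl. Whether these TKO cells are Merkel cells was not tested.

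**Figure D1:**
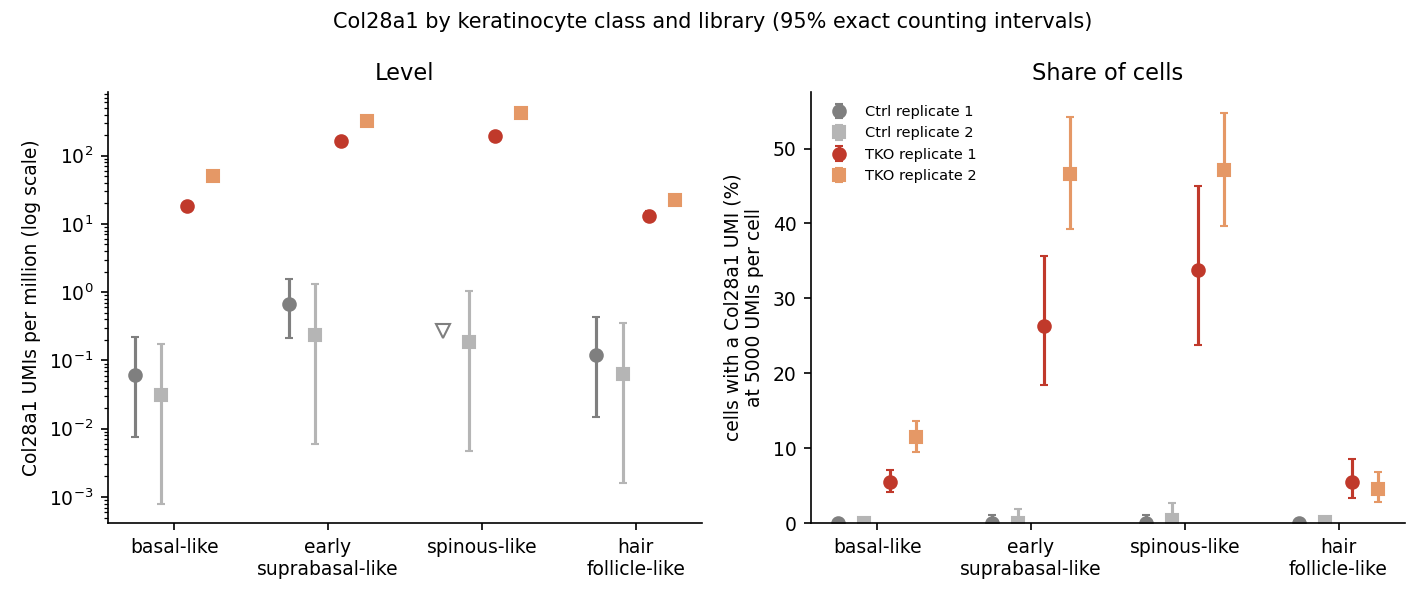
Col28a1 in 4 keratinocyte classes (x axis) and 4 libraries (colours). Left, CPM on a log scale with exact 95% counting intervals; the open triangle is the level that 0 UMIs allow. Right, the percentage of cells with a Col28a1 UMI after 1 random thinning to 5000 UMIs per cell. All TKO points lie above all Ctrl points of the same class on the left, and the early suprabasal-like and spinous-like TKO points are the highest in both panels.

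The share of cells with a Col28a1 UMI differed between the layers. Median depth differed between classes (30070 and 28115 UMIs per TKO basal-like cell, 39117 and 36734 per spinous-like cell), so each cell was thinned to 5000 UMIs. The share expected over all possible draws was 5.63% and 11.7% in TKO basal-like cells, 25.9% and 43.4% in early suprabasal-like, 28.2% and 49.1% in spinous-like, and 3.81% and 4.86% in hair follicle-like cells. The single random draw used in the plots, the bins and the co-detection below gave 5.47% and 11.4%, 26.4% and 46.7%, 33.7% and 47.2%, and 5.54% and 4.54%. At full depth the shares were 15.1% and 23.2%, 45.5% and 59.7%, 42.2% and 61.9%, and 9.01% and 12.9%. The suprabasal shares stood above the basal-like shares in each embryo on all 3 scales. Without alignment the expected difference between spinous-like and basal-like cells was 3.37 and 6.48 percentage points, against 22.5 and 37.4 with it. Only 40 and 17 TKO cells were then spinous-like, and 162 and 364 were early suprabasal-like. The shallower cells that the thinning left out numbered 0 to 4 per TKO class and library.

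Cells that had the transcript also held more of it above the basal layer. At full depth a positive TKO cell held on average 3.93 and 6.59 Col28a1 UMIs in the basal-like class, 13.3 and 17.9 in the early suprabasal-like class, 17.7 and 24.3 in the spinous-like class, and 4.84 and 4.86 in the hair follicle-like class. At full depth, the spinous-like class was thus 2.80 and 2.67 times the basal-like class in the share of positive cells and 4.50 and 3.69 times in UMIs per positive cell, with 1.17 and 1.19 times as many UMIs of all genes per cell.

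RNA set free from broken cells can give a UMI in a cell that does not express a gene, so the cells left out of the keratinocytes were read beside them. In TKO, 0 of 247 and 0.719% of immune-like cells had a Col28a1 UMI at 5000 UMIs per cell, at median depths of 18412 and 18042. A count of 0 allows a share of up to 1.21%. For fibroblast-like cells the shares were 1.06% and 0.763%, at median depths of 18116 and 15052. All 4 keratinocyte classes were above these shares in both TKO libraries. In melanocyte-like cells (33 and 19 cells) the shares were 3.03% and 10.5%, from 1 and 2 cells, with intervals of 0.0767% to 15.8% and 1.30% to 33.1% that hold the basal-like and hair follicle-like shares. These cells held 24 and 55 UMIs (24.2 and 97.6 CPM), with Krt14 at 1448 and 5915 CPM in the same cells. In Ctrl keratinocytes the share was 0.0355% and 0.102%.

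Within TKO, Col28a1 was read against the summed Krt1 and Krt10 level of each cell, a measure of how far a keratinocyte had moved from the basal state, in cells outside the hair follicle- and Merkel-like classes. In TKO replicate 1, the share with a Col28a1 UMI was 5.64% in cells under 1000 CPM of Krt1 plus Krt10, 20.8% from 1000 to 3000, 27.0% from 3000 to 10000, 33.3% from 10000 to 30000 and 29.1% at 30000 and over. In TKO replicate 2, the shares were 10.7%, 39.5%, 46.7%, 47.0% and 45.7%. The share rose at the first step into keratin expression and was flat, within its intervals, from 3000 CPM upward. Expected over all draws, the lowest and highest bins had 5.65% and 27.2% in TKO replicate 1 and 10.9% and 46.8% in TKO replicate 2. The level by CPM went from 19.03 through 98.2, 107 and 195 to 233 in TKO replicate 1. In TKO replicate 2 it went from 45.7 through 233, 426 and 347 to 383. The bins above 1000 CPM held 24 to 72 cells in TKO replicate 1 and 38 to 208 in TKO replicate 2.

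**Figure D2:**
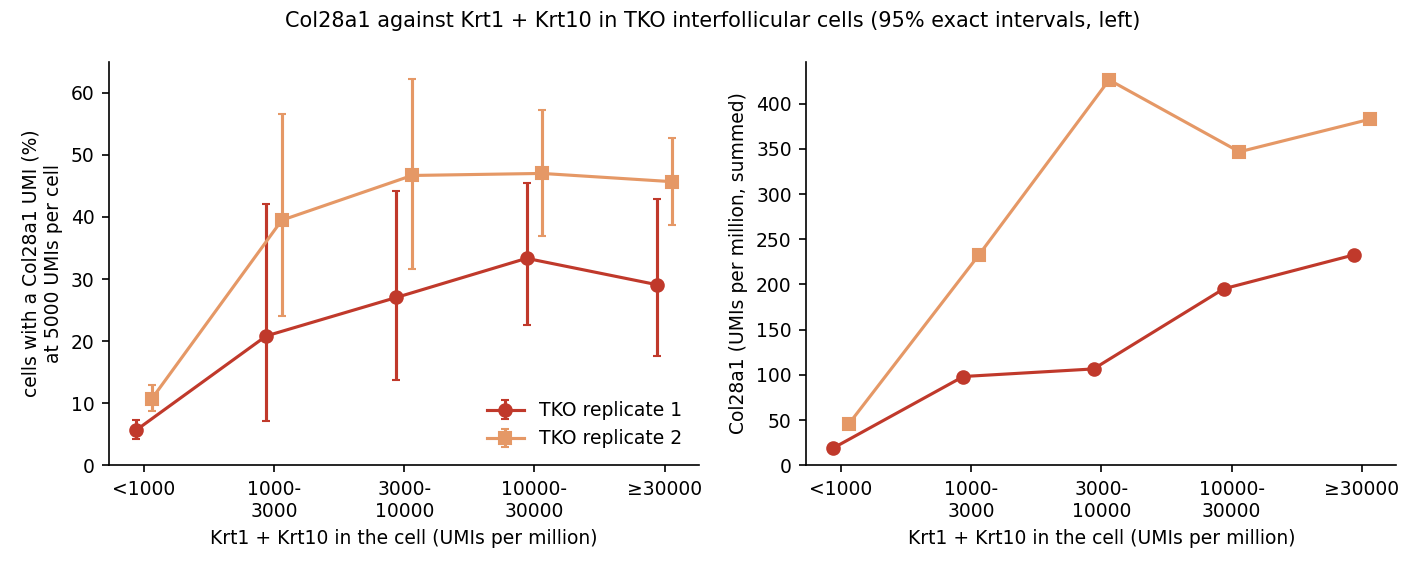
Col28a1 in TKO cells outside the hair follicle- and Merkel-like classes, by the summed Krt1 and Krt10 level of the cell (x axis, CPM). Left, the percentage of cells with a Col28a1 UMI at 5000 UMIs per cell with exact 95% intervals; right, summed CPM. In both embryos the lowest bin (5.64% and 10.7%) lies under every other bin, and the left curves flatten from 3000 on.

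As a description across cells, Spearman's rho of thinned Col28a1 UMIs with the Krt1 plus Krt10 level was 0.18 over 1198 cells of TKO replicate 1 and 0.36 over 1291 cells of TKO replicate 2. Inside the classes it was weaker: -0.03 and 0.13 over basal-like cells, and 0.06 and -0.04 over the early suprabasal-like and spinous-like cells together. The cells of a library share its depth and preparation and are not replicates. The relation was thus stronger over all these cells than inside the classes. Krt1 and Krt10 were themselves at 35330 and 51570 CPM in TKO spinous-like cells, against 67380 and 70430 CPM in Ctrl.

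Clusters inside a class differed widely. A basal-like cluster led by Zfp750, Ovol1, Krt32 and Hbegf, of which Zfp750 and Ovol1 encode differentiation factors of the epidermis, had Krt1 plus Krt10 at 3818 and 5529 CPM. Its Col28a1 level was 39.0 CPM in TKO replicate 1 (36 cells) and 253 CPM in TKO replicate 2 (67 cells). Without this transitional cluster the log2 ratio of spinous-like to basal-like cells went from 3.25 to 3.52. Basal-like cells led by the mitotic genes Ube2c and Ccnb2 were low: 8.78 and 18.8 CPM in the first such cluster and 7.05 and 11.02 CPM in the second. Early suprabasal-like cells led by the mitotic genes Pbk, Aurkb and Top2a had 58.8 and 186 CPM. They stood above the mitotic basal-like clusters and below the non-mitotic early suprabasal-like cells led by Mgst1 and Ctsc (214.5 and 298 CPM) in each embryo.

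The highest level was in a small early suprabasal-like cluster led by Abca12, the lipid transporter of the barrier, with Tprg, Myo5b and Adgrf2. It had 646 CPM in 16 cells of TKO replicate 1 and 1672 CPM in 23 cells of TKO replicate 2. The median depth of this cluster was 9152 UMIs, against 25733 in the main early suprabasal-like cluster. Its leading genes named here were also among those most raised in the left-out TKO barcodes with a high mitochondrial share, described below. The part of RNA quality in this level was not tested. At the other end, a spinous-like cluster led by Sprr1b and Calm4 had 0 Col28a1 UMIs in 8 cells and 1 UMI in 11 cells, with Krt1 plus Krt10 at 40900 and 31800 CPM and a median depth of 9368 UMIs. The cluster led by Lor, the major protein of the cornified envelope, had 182 and 310.3 CPM. In the hair follicle-like class, the cluster led by Sostdc1 had 45.6 and 28.5 CPM, and the cluster led by Dkk4, Fgf20 and Nr3c2 had 2.30 and 8.24 CPM.

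The transcript was concentrated in few cells. Of 1562 and 1791 TKO keratinocytes, 26 and 101 held 20 or more Col28a1 UMIs, and the highest counts in a cell were 113 and 130. The top 10% of keratinocytes held 93.7% and 83.9% of all its UMIs. Even in the spinous-like class, 48 of 83 and 67 of 176 TKO cells had 0 UMIs at full depth. In that class 10 and 50 cells held 20 or more, so cells with many and cells with none occurred side by side.

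Col28a1 was then read against 9 other genes raised in TKO: Npffr1, Svop, Gm11884, 1700030N03Rik, Gm42653, Gria3, Tdrd1, Cd28 and D7Ertd128e. They were picked with results of these data known, so their rise in TKO supports nothing. The number of them detected in a cell at 5000 UMIs was used as a reading of that cell's own derepression. In TKO basal-like cells with none of the 9, 0.637% and 5.54% had a Col28a1 UMI. With 1 of the 9 the shares were 4.14% and 9.79%, with 2 they were 10.4% and 13.5%, and with 3 or more 11.8% and 26.6%. In spinous-like cells the shares went from 9.38% and 34.3% with none to 62.5% and 90.0% with 3 or more, the last in 8 and 10 cells. In early suprabasal-like cells they went from 10.0% and 26.1% to 47.6% and 80.0%, and in hair follicle-like cells from 0.926% and 1.83% to 10.7% and 15.8%. The end values rose with the number of other genes in all 4 classes and both embryos, and spinous-like cells stood above basal-like cells at each number. Detection of any gene depends on the RNA of the cell, and its part in this relation beyond the equal depth was not tested.

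**Figure D3:**
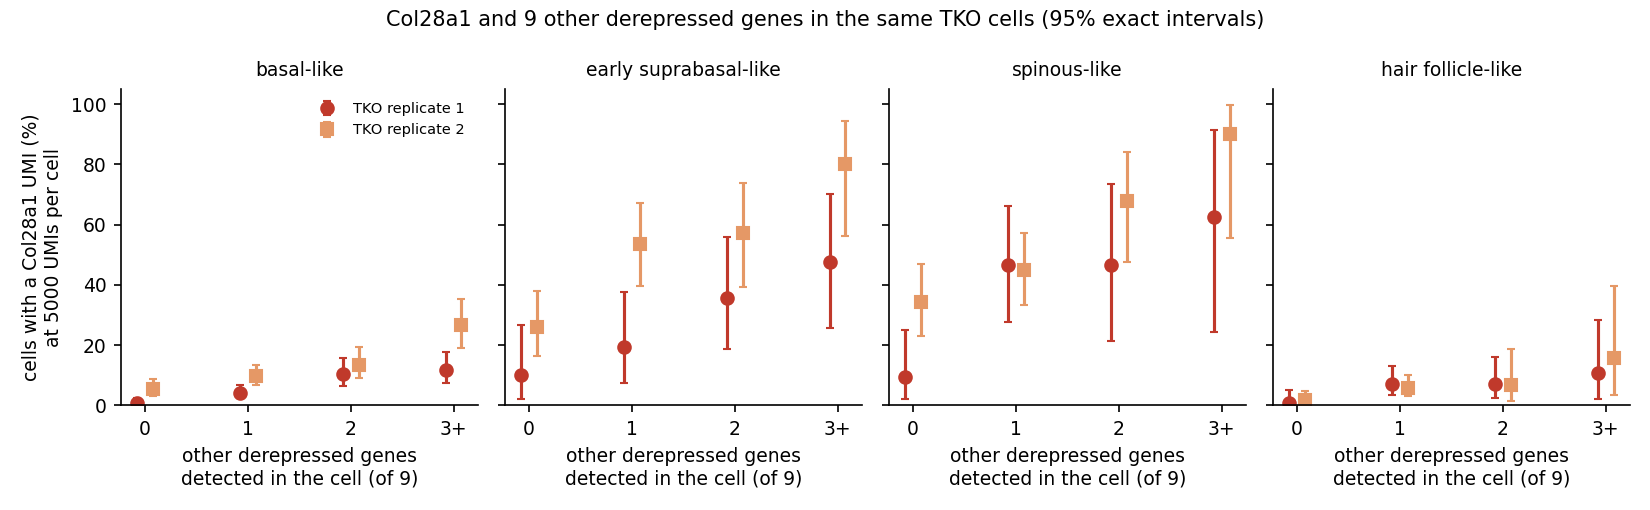
Percentage of TKO cells with a Col28a1 UMI (y axis, at 5000 UMIs per cell, exact 95% intervals) by how many of 9 other derepressed genes were detected in the same cell (x axis), in 4 classes. Cells with 3 or more lie above cells with none in every panel, from 11.8% and 26.6% in basal-like to 62.5% and 90.0% in spinous-like cells.

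Most of the comparison genes went the other way across the layers. Npffr1, a neuropeptide receptor gene, was at 23.8 and 36.3 CPM in TKO basal-like cells and at 10.7 and 7.85 CPM in TKO spinous-like cells. Svop, Gm42653, Gria3, Cd28 and D7Ertd128e were also lower in spinous-like than in basal-like cells of both TKO libraries. The noncoding Gm11884 (1.65 and 1.99 times), Tdrd1, a germline piRNA pathway gene (1.84 and 2.16 times), and 1700030N03Rik (2.42 and 1.07 times) were higher in spinous-like cells, each by less than Col28a1 in the same library.

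A wider set was taken by level: genes higher in TKO keratinocytes, under 1 CPM in both Ctrl libraries and with at least 20 UMIs in the basal-like and spinous-like cells summed in each TKO library. Of 378 genes that met the first 2 conditions, 261 met the third. The basal-like sums hold more UMIs than the spinous-like sums, so this limit and the call in all keratinocytes admit a low basal gene more readily than a low spinous gene, and the balance of directions in the set is partly fixed by them: 36 genes were higher and 209 lower in spinous-like cells of both TKO libraries. The log2 ratio of spinous-like to basal-like level, on the CPM + 1 scale, was 3.36 and 3.03 for Col28a1, which was chosen on this difference; it had rank 6 of 261 by the mean. Above it were Krt6b, the stress keratin (7.06), Spink2 (4.97), Sprr2h, a small proline-rich envelope gene (3.87), 4632432E15Rik (3.41) and Fbp2 (3.36). Below it came Htr1b (2.74), Sprr2d (2.67), Bglap3 (2.64), Lcn2 (2.32) and Gm33981 (2.08). Of these 11 genes, Col28a1 had the highest spinous-like CPM (195 and 425), and Krt6b was next (115 and 376). With the UMI limit replaced by at least 10 CPM in either class of each TKO library, a choice made after seeing the data, 27 genes remained, 11 higher and 16 lower in spinous-like cells of both libraries, and Col28a1 ranked 4 after Krt6b, Spink2 and Sprr2h.

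**Figure D4:**
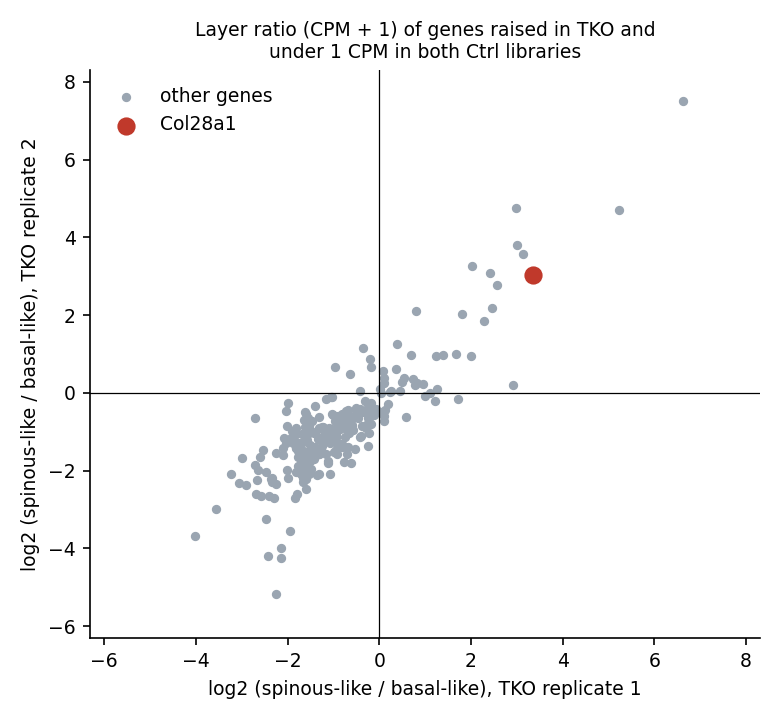
Each point is 1 of 261 genes raised in TKO keratinocytes and under 1 CPM in both Ctrl libraries. The axes give the log2 ratio of spinous-like to basal-like level (CPM + 1) in TKO replicate 1 (x) and TKO replicate 2 (y). Col28a1 (red) lies at 3.36 and 3.03; the UMI limit that admits genes favours the lower left, where basal genes lie.

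The genes most like Col28a1 over the sums of 4 libraries by 4 classes were sought among 10575 genes by Pearson's r of log2(CPM + 1). The highest were the predicted gene Gm33981 (0.980), Kyat3, a kynurenine aminotransferase gene (0.967), Gm11884 (0.964), 1700030N03Rik (0.936), ENSMUSG00000120786 (0.936) and Mb, the myoglobin gene (0.930). Gm12865, Farp2, Pdcd2 and Tcfl5 completed the first 10, with r from 0.923 to 0.929. The 16 sums share libraries and genotype, so r mostly reads the gap between genotypes, and 6 of the 10 genes stayed in the list with a pseudocount of 5. Gm33981 had 3.90 and 6.20 CPM in TKO basal-like cells, 23.0 and 25.1 CPM in TKO spinous-like cells and 2.71 and 8.01 CPM in TKO hair follicle-like cells. Kyat3 differed in its Ctrl level, which was 20.8 to 35.2 CPM over the 8 Ctrl sums.

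Across single TKO keratinocytes (1558 and 1784 cells at 5000 UMIs), a different group was closest. Among 8804 genes, the highest mean r of log-scaled UMIs was that of Dsg1a (0.35), a desmosomal cadherin gene, with Krt10 (0.35), Ly6d (0.35), Abca12 (0.35) and Krt1 (0.35). Elovl4, Dsg1b, Lgals3, Sbsn and Dsp followed at 0.32 to 0.34. Dsg1b and Dsp also encode desmosomal proteins, and Elovl4 extends the fatty acids of barrier lipids. The lowest values were those of Cxcl14 (-0.30) and Ptma (-0.29), and Krt14 had -0.22 to -0.23 in the 2 libraries. Col28a1 was chosen as higher above the basal layer, so the suprabasal genes at the top and Krt14 at the low end partly restate that choice. These r are weak, describe cells that share a library, and have no test.

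Among the 44 collagen chain genes of the gene list, Col28a1 had the highest CPM in early suprabasal-like and spinous-like cells of both TKO libraries. Whether introns were counted in these 3′-tag data is not given, so any dependence of CPM on gene length was not tested. The next chain in spinous-like cells was Col18a1, the basement membrane collagen XVIII, at 60.8 and 79.0 CPM. In TKO basal-like cells Col28a1 ranked 16 and 10, behind Col17a1, the hemidesmosomal collagen (218 and 309 CPM), and in hair follicle-like cells 18 and 13. In Ctrl cells of the 4 classes it did not exceed 0.664 CPM. Col17a1 went the other way across the layers, with 3.78 and 4.16 CPM in TKO spinous-like cells.

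The other collagen chains and their partners were read in sums of UMIs per library, tested with edgeR over all genes. In keratinocytes, 6.78% of 19952 genes passed at an adjusted p under 0.05 (4.22% higher and 2.56% lower in TKO). In basal-like cells 11.8% of 17834 passed (7.54% higher, 4.24% lower), and in the early suprabasal-like and spinous-like cells together 1.1% of 13758 passed (0.814% higher, 0.291% lower). The fitted log2 change of Col28a1 itself was 9.53 (SE 0.834), 9.40 (SE 0.863) and 10.0 (SE 0.642) in the 3 fits, given as a description of the contrast it was chosen on. With 2 libraries a group the spread is poorly known, and how many genes passed moved when a Ctrl library was left out: from 1353 in keratinocytes to 185 without Ctrl replicate 1 and 133 without Ctrl replicate 2, from 2101 in basal-like cells to 836 and 767, and from 152 in the suprabasal classes to 39 and 101.

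Of 35 other collagen chains tested in keratinocytes, 5 rose, 5 fell and 25 did not pass, with a median log2 change of 0.17 beside -0.02 for all genes. The chains that rose were Col22a1, Col2a1, Col11a1, Col8a1 and Col18a1. Col8a1, a short-chain collagen, went from 23.3 and 22.8 to 84.9 and 51.3 CPM (log2 change 1.54, SE 0.225, adjusted p 0.0235 in edgeR). Col22a1, a chain of tissue junctions that also has a von Willebrand A domain, went from 5 and 4 UMIs to 127 and 61 UMIs (4.57, SE 0.545, adjusted p 0.0147 in edgeR). Col2a1 rested on 1 UMI in each Ctrl library and 14 in each TKO library, and it lost its call under 7 of 10 other settings. The 5 calls were lost without Ctrl replicate 1 and without Ctrl replicate 2. Over the 4 settings that leave out a library, the log2 change stayed between 1.17 and 1.85 for Col8a1 (adjusted p up to 0.155 in edgeR), between 3.95 and 5.02 for Col22a1 (up to 0.112), between 1.74 and 2.44 for Col11a1 (up to 0.128) and between 0.56 and 0.84 for Col18a1 (up to 0.219). These chains had a lower CPM than Col28a1 in TKO spinous-like cells.

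The chains that fell were Col25a1, Col9a3, Col4a6, Col7a1 and Col4a5. Col7a1, the anchoring fibril collagen, went from 89.1 and 94.1 to 38.5 and 47.0 CPM (log2 change -1.11, SE 0.136, adjusted p 0.0157 in edgeR). Col4a6, a basement membrane chain, went from 144 and 148 to 68.1 and 68.0 CPM (-1.12, SE 0.0868, adjusted p 0.00506 in edgeR). It also fell in basal-like cells (-1.10, adjusted p 0.00553 in edgeR) and in the suprabasal classes (-1.92, adjusted p 0.032 in edgeR). Col4a5, its partner chain, fell in all 3 fits, by 0.68, 0.68 and 0.95 on the log2 scale. With a library left out, the change of Col7a1 in keratinocytes was -1.27 to -0.95 (adjusted p up to 0.109 in edgeR, lost without each Ctrl library in turn), that of Col4a6 -1.13 to -1.09 (up to 0.0585, lost without Ctrl replicate 2) and that of Col4a5 -0.73 to -0.61 (up to 0.145, lost without each Ctrl library in turn). Col9a3 was lost without each Ctrl library in turn (up to 0.111) and Col25a1 without Ctrl replicate 1 (up to 0.0701). In basal-like cells 5 of 28 chains rose and 4 fell (median 0.05 beside -0.01 for all genes), and Col14a1, a fibril-associated chain, joined those that rose (1.84, adjusted p 0.0153 in edgeR). In the suprabasal classes, where Col28a1 was highest, 0 of 21 other chains rose and 2 fell (median 0.14 beside 0.00 for all genes). Both were lost without Ctrl replicate 1 (adjusted p up to 0.0601 for Col4a6 and 0.223 for Col4a5 in edgeR, the latter also without Ctrl replicate 2). In basal-like cells Col4a5 was lost without each Ctrl library in turn (up to 0.105) and Col18a1 without Ctrl replicate 1, Ctrl replicate 2 or TKO replicate 1 (up to 0.234), and the other 7 calls held with each library left out.

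Among 37 basement membrane and hemidesmosome genes, 2 rose and 4 fell in keratinocytes (median -0.06). Lama1, a laminin chain of early basement membranes, rose by 0.96 on the log2 scale (adjusted p 0.0176 in edgeR), and Lamb2, another laminin chain, fell by 0.86 (adjusted p 0.0302 in edgeR). In basal-like cells 5 of 34 rose, with Nid1, the nidogen linker, at 2.06 (adjusted p 0.0104 in edgeR), and 7 fell, among them Fras1 and Frem2 of the epithelial basement membrane complex (median -0.12). In the suprabasal classes 0 of 31 rose and 3 fell, namely Col4a5, Col4a6 and Fras1 (median -0.02). There 2 rose and 4 fell with DESeq2, 4 and 7 with no expression filter, and 0 and 0 with the replicate block. Without each Ctrl library in turn Lama1 and Lamb2 lost their calls in keratinocytes (adjusted p up to 0.15 and 0.23 in edgeR) and Fras1 in the suprabasal classes (up to 0.168), while Nid1 lost its call in basal-like cells without Ctrl replicate 1 (up to 0.0502). Lama1, Lamb1, Lama5 and Col18a1, which also rose in basal-like cells, lost their calls without each Ctrl library in turn (up to 0.071, 0.136, 0.192 and 0.234), so that of the 5 rises 0 remained without Ctrl replicate 1 and 1 without Ctrl replicate 2, and 2 genes rose without TKO replicate 1. The 7 falls became 4 without Ctrl replicate 1, 3 without Ctrl replicate 2 and 11 without TKO replicate 2, and Lamb2 lost its call in basal-like cells without Ctrl replicate 2 (up to 0.069). Lamb2 was also lost in keratinocytes without TKO replicate 1. Fras1 was lost in basal-like cells without Ctrl replicate 1 (up to 0.104), and Frem2 without Ctrl replicate 1, Ctrl replicate 2 or TKO replicate 1 (up to 0.135).

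Of 24 collagen processing genes in keratinocytes, 1 rose and 1 fell (median 0.04). Plod2, a lysyl hydroxylase that shapes collagen cross-links, rose from 19.4 and 20.3 to 66.0 and 60.4 CPM (log2 change 1.66, SE 0.0973, adjusted p 0.00298 in edgeR), a call kept under all 11 other settings run. Plod1, its paralog, fell by 0.88 (adjusted p 0.0379 in edgeR), a call lost under 6 of 11, among them leaving out Ctrl replicate 1, Ctrl replicate 2 or TKO replicate 1 (adjusted p up to 0.247 in edgeR). In basal-like cells the same pair passed among 22 genes (median 0.03), Plod1 not without Ctrl replicate 2 (adjusted p up to 0.0571 in edgeR). In the suprabasal classes 2 of 18 fell, Bmp1, a procollagen proteinase, and Adamts14, a procollagen N-proteinase (median -0.06), both lost without each Ctrl library in turn (adjusted p up to 0.184 and 0.101 in edgeR). Of 16 other von Willebrand A-domain matrix genes, 1 rose (Col22a1) and 2 fell (Col7a1 and Matn2) in keratinocytes (median 0.12), 2 rose and 2 fell of 10 in basal-like cells (median near 0, -0.00432), and 0 of 8 passed in the suprabasal classes (median -0.02). Matn2, a matrilin, fell from 14.4 and 16.54 to 3.58 and 4.69 CPM (log2 change -1.92, SE 0.209, adjusted p 0.0114 in edgeR), a call lost without each Ctrl library in turn (up to 0.0956) but held in basal-like cells with each library left out. Read against all genes, the collagen, basement membrane and von Willebrand A-domain lists had more calls than the background shares in keratinocytes and basal-like cells, and the collagen processing list was near them. In the suprabasal classes, against 1.1% of all genes, 2 of 21 chains, 3 of 31 basement membrane genes, 2 of 18 processing genes and 0 of 8 von Willebrand A-domain genes passed. The lists share called genes, among them Col4a5, Col4a6, Col7a1, Col18a1 and Col22a1. The calls went in both directions, and whether these shares differ from the background was not tested.

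The 9 derepressed comparison genes rose in 9 of 9 tests in keratinocytes and in basal-like cells, and in 6 of 8 in the suprabasal classes (medians 8.54, 8.51 and 9.16), which restates how they were picked.

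Of the genes beside Col28a1 on chromosome 6, Mios, Rpa3 and Umad1 were tested in all 3 fits and passed in none, and Gm45062 was tested in keratinocytes only and did not pass. Mios, which begins 16479 bases beyond its first exon, was at 27.9 and 24.1 CPM in Ctrl keratinocytes and 26.8 and 33.5 CPM in TKO (log2 change 0.20, SE 0.168, adjusted p 0.515 in edgeR). Rpa3, a replication protein gene 63312 bases away, had a log2 change of 0.17 (SE 0.157, adjusted p 0.557 in edgeR), and Umad1 had 0.12 (SE 0.22, adjusted p 0.790 in edgeR). The predicted gene Gm45062 had 6 to 25 UMIs per library (log2 change -0.42, adjusted p 0.735 in edgeR). On the far side, the pseudogene Rnps1-ps had 2 to 8 UMIs per library and the small nucleolar RNA gene Gm56083 had 0. Gm67024, a noncoding gene annotated on the opposite strand inside Col28a1, and 4 further noncoding neighbours (Gm35446, Gm68540, Gm67426 and Gm46952) were not analysed here.

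Markers of other cells were read for the classes in which Col28a1 was counted. Of 11 Schwann cell markers, the summed level in keratinocytes was 64.0 and 73.9 CPM in Ctrl and 40.9 and 48.5 CPM in TKO, and 0 of 6 tested passed. Sox10, the defining factor of that lineage, was counted 1 and 4 times in Ctrl, beside 11 and 2 times in TKO. Within TKO the list summed to 37.7 and 38.5 CPM in basal-like cells and to 76.6 and 91.3 CPM in the suprabasal classes, where Ctrl had 83.2 and 85.8 CPM, so it was higher in the layers where Col28a1 was higher, in both genotypes. In the suprabasal classes Sox10 was counted 0 times in both Ctrl libraries and 3 and 0 times in TKO, and Cdh19, Foxd3 and Gfra3 were at 0 in all libraries. The part of these markers in the Col28a1 level was not tested. Of 5 periderm markers, for the transient outer layer of fetal skin, the summed level in the suprabasal classes was 31.8 and 48.8 CPM in Ctrl and 352 and 539 CPM in TKO, with Krt6a and Krt17 higher and Sprr3 at 0 in all libraries. Krt6a and Krt17 are also stress keratins, and their part in the Col28a1 level was not tested. The 7 fibroblast markers summed to 32.0 and 61.3 CPM in Ctrl and 68.1 and 23.3 CPM in TKO suprabasal cells, with overlap between groups. The 8 Merkel markers summed to 172 and 154 CPM in Ctrl keratinocytes and 6.62 and 4.8 CPM in TKO, with 6 lower and 0 higher. Of 14 hair follicle markers 2 were higher and 4 lower in TKO (1113 and 1364 against 1099 and 1150 CPM), and the erythroid list was at 18.8 and 249 CPM in Ctrl and 19.1 and 99.8 CPM in TKO. The immune, melanocyte, endothelial and muscle lists each summed to at most 15.3 CPM in the keratinocytes of any library. The immune list was at 5.67 and 7.52 CPM in Ctrl and 12.6 and 15.3 CPM in TKO, and 0 of its 6 tested genes passed. Of the endothelial list both tested genes were higher in TKO, Pecam1 (1.80 and 1.83 to 4.34 and 5.37 CPM, adjusted p 0.0304 in edgeR) and Kdr (0 and 1 UMIs to 26 and 17 UMIs, adjusted p 0.0289 in edgeR). Of the melanocyte list 1 of 4 was, Mlana (6 and 6 UMIs to 250 and 93 UMIs, adjusted p 0.0167 in edgeR). All 3 calls were lost without each Ctrl library in turn, and that of Kdr also without TKO replicate 1 (adjusted p up to 0.206, 0.172 and 0.119 in edgeR for Pecam1, Kdr and Mlana). Their part in the Col28a1 level was not tested.

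The filter on cells had left out barcodes in which Col28a1 was higher still. In barcodes with 10% or more mitochondrial UMIs and at least 2000 genes, its level was 316 CPM in TKO replicate 1 (101 barcodes) and 987 CPM in TKO replicate 2 (225 barcodes), against 34.3 and 96.5 CPM in the barcodes that passed. Without the mitochondrial genes in the total it was 375 and 1188 CPM against 34.9 and 98.5. Ctrl barcodes of this kind held 1 and 0 UMIs, so the gap between genotypes was also there. With mitochondrial genes left out of the total, the log2 ratio on the CPM + 1 scale was 3.39 and 3.58. Among 11040 genes with at least 5 CPM in the barcodes that passed, these were ranks 15 and 4, and rank 4 by the lower of both ratios, after Tmem132d, Myo5b and Adgrf2. With mitochondrial genes in the total, Col28a1 was 9.22 and 10.2 times as high in these TKO barcodes. On that scale Abca12 was 12.8 and 7.77 times as high and the nuclear RNA Malat1 3.83 and 4.10 times. Krt1 was at 0.40 and 0.40 of its level among the TKO barcodes that passed, and Krt14 at 0.21 and 0.19. In Ctrl, Abca12 was 8.41 and 8.23 times as high in such barcodes and Malat1 3.05 and 3.16 times. All 9 comparison genes were also higher there in both TKO libraries, among them Tdrd1 (1.28 and 1.64 times) and 1700030N03Rik (6.87 and 9.28 times). The rise was thus not particular to Col28a1, and what these barcodes are was not tested.

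**Figure D5:**
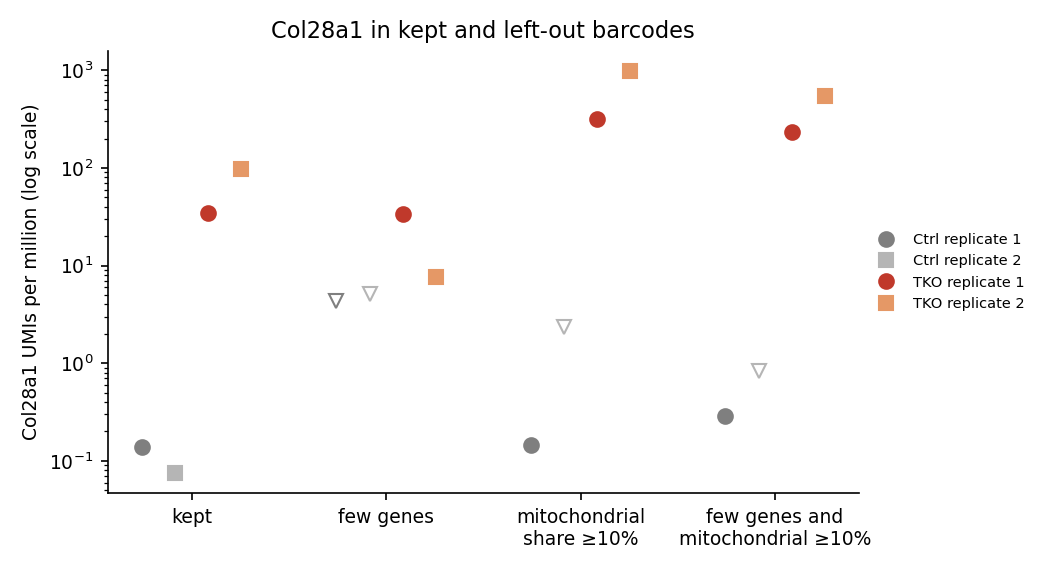
Col28a1 level in CPM (y axis, log scale) in barcodes that passed the filter and in those left out for few genes, for a mitochondrial share of 10% or more, or for both (x axis), by library. Open triangles are the level that 0 UMIs allow (3 UMIs). The TKO barcodes with a high mitochondrial share (316 and 987 CPM) lie above the TKO barcodes that passed (34.3 and 96.5 CPM).

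Inside the filter the values by mitochondrial share differed between classes. TKO early suprabasal-like cells with 5% to 10% mitochondrial UMIs had 681 CPM (16 cells) and 1353 CPM (26 cells), against 129 and 281 CPM at 2.5% to 5% and 150 and 271 CPM under 2.5%. Basal-like cells had 46.7 and 51.6 CPM at 5% to 10%, 19.1 and 61.7 CPM at 2.5% to 5%, and 17.3 and 48.0 CPM under 2.5%. Spinous-like cells went the other way, with 199 and 431 CPM under 2.5% and 105.5 and 315 CPM at 2.5% to 5% (5 and 10 cells), and the 1 cell of each library at 5% to 10% had 0 UMIs. Hair follicle-like cells had 12.03 and 21.4 CPM under 2.5%, 24.9 and 18.8 CPM at 2.5% to 5%, and 4.15 and 106 CPM at 5% to 10% (18 and 21 cells). Among cells under 2.5%, spinous-like cells stood above basal-like cells in each embryo, as they did over all cells.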

How the data were processed

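The deposited files hold raw UMI counts per gene and barcode for each of 4 libraries. Per the labels the authors used a Chromium Single Cell 3′ kit, Cell Ranger and the GRCm39 build; which annotation was used, and whether introns were counted, is not given in the sources used here. Barcodes with at least 2000 genes and under 10% mitochondrial UMIs were kept, and the top-scoring share of doublets (0.8% per 1000 barcodes) was left out: 66 to 157 per library. Cells were clustered with scanpy 1.11.5 (2000 variable genes, 30 components, Harmony alignment coded for this work, Leiden resolution 1), non-keratinocytes were set aside, and keratinocytes were clustered again without genes that differed between genotypes. Clusters were named from at least 3 detected markers; early suprabasal-like and spinous-like clusters were divided by their Krt1 plus Krt10 level. This division, and the α6 sort, set the cell numbers per class, so class sizes are not compared.

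CPM is UMIs per 1000000 UMIs of the summed cells. UMIs were summed per library and class and tested by genotype with edgeR 4.0.16 (TMM, filterByExpr, quasi-likelihood F test, Benjamini-Hochberg over all genes tested, threshold 0.05); cells were never used as replicates. Each library was 1 embryo. Equal replicate numbers were not treated as pairs, as their deviations correlated at -0.36, -0.24 and -0.40 in the 3 fits. With this sign, unlike numbers deviated more alike, and the source of this was not tested. The study states that each group held male and female samples, and sex was not in the model. On counts drawn from the keratinocyte sums (19965 genes), the script called 55 of 100 genes changed 2-fold, 100 of 100 changed 8-fold and 4 unchanged genes. These counts had the same fixed spread between libraries for every gene, and only well-counted genes were changed. Recovery in the real libraries can therefore differ.

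Col28a1, the gene lists and the tests were chosen with earlier results of these data known. The named genes are Col28a1, its 5 nearest neighbours on either side and any overlapping gene, list members past the test (up to 6 per direction and fit), the 10 genes most like it by each measure, and, chosen after their values were seen, the leading genes of clusters and of the layer and left-out comparisons. Alternatives to these steps are given at the end.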

Additional observations from a re-analysis of the deposited data

Results flagged for a closer look

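Col28a1 had a signal in TKO barcodes that no comparison of classes used, above the level of the same kind of barcode in Ctrl. In barcodes with 10% or more mitochondrial UMIs and at least 2000 genes it was at 315.9 CPM in TKO replicate 1 and 987.2 CPM in TKO replicate 2, against 0.145 and 0 CPM in Ctrl. In barcodes outside both limits it was at 236.0 and 548.1 CPM, against 0.289 and 0 CPM in Ctrl. In barcodes with under 2000 genes and a low mitochondrial share it was at 33.96 CPM (15 UMIs in 197 barcodes) and 7.661 CPM (5 UMIs in 156 barcodes), with 0 UMIs in Ctrl. The source of these UMIs was not tested.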

How the results depend on the processing

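The log2 ratio of spinous-like to basal-like TKO cells (mean of 2 libraries, 3.25) stayed positive under every alternative run. It was 3.58 with a minimum of 3000 genes, 1.32 without alignment of the libraries, 3.60 at Leiden resolution 0.5, 2.95 as a mean over cells, and 3.52 without the transitional basal-like cluster. Without alignment only 40 and 17 TKO cells were spinous-like, and the difference in share of positive cells fell from 32.0 to 8.96 percentage points. In that setting 162 and 364 TKO cells were early suprabasal-like. Their Krt1 plus Krt10 level was 18490 and 34420 CPM, against 10110 and 12160 CPM in Ctrl, so this class was not alike between genotypes. Its TKO Col28a1 level was 213 and 375 CPM, against 18.5 and 48.0 CPM in TKO basal-like cells. The ratio of spinous-like to early suprabasal-like cells (0.31) was reversed without alignment (-1.93) and as a mean over cells (-0.32). It was 0.58 with doublets kept, 0.69 with 3000 genes, 0.51 at resolution 0.5, 0.62 with changed genes kept in the clustering, 0.54 without the shallow early suprabasal-like cluster and 0.53 with a mitochondrial share under 5%. The ratio of hair follicle-like to basal-like cells (-0.82) was -2.05 without alignment and reversed, at 0.13, with changed genes kept. The settings without the transitional or the shallow cluster, under 5%, and with crossed numbers were chosen after seeing the data. Leaving out each library in turn gave 3.06 to 3.43 for spinous-like over basal-like, 2.67 to 3.19 for early suprabasal-like over basal-like, 0.24 to 0.39 for spinous-like over early suprabasal-like, -1.18 to -0.46 for hair follicle-like over basal-like, 28.3 to 35.7 points for the share and 23.5 to 35.0 points for the keratin bins. These shares also move with the random draw: expected over all draws, a setting added after seeing the data, the share difference was 22.5 and 37.4 points in the 2 TKO libraries. Over the class settings other than no alignment it was 22.3 to 25.8 points in TKO replicate 1 and 37.4 to 43.1 in TKO replicate 2, and the keratin bins gave 21.1 to 24.1 and 35.2 to 36.9.

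The 1353 genes called in keratinocytes were 2657 with DESeq2, 687 with no expression filter, 869 thinned to 5000 UMIs and 936 with the replicate block. The 2101 in basal-like cells were 1292 with the replicate block and 1283 thinned. The 152 in the suprabasal classes were 577 with DESeq2, 1697 with no filter, 399 without alignment and 77 with the replicate block. Leaving out a library gave 133 to 2245, 767 to 2981 and 39 to 479, where a lone library is assumed to vary like the others; the lowest counts were without Ctrl replicate 2, Ctrl replicate 2 and Ctrl replicate 1. The replicate block with crossed numbers gave 3501, 2885 and 1012. Of the other collagen chains, 0 rose and 2 fell in the suprabasal classes. These counts were 1 and 3 with DESeq2, 2 and 3 with no filter, and 0 and 0 with the replicate block. No named gene changed direction, and the cause of these moves was not tested. Ctrl classes with 0 to 6 Col28a1 UMIs limit every ratio to Ctrl, and 2 embryos per genotype limit every test.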
